A study of Mus musculus with 15 samples.

Results

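Fibroblasts of the source TAF-tib42 were compared with fibroblasts of the source TAF-tib48, both labelled resistant, on all 3 arrays of each source, 6 of the 15 arrays of the series. The arrays were taken by their titles, and all 31200 genes that could be tested entered the comparison. The series measured gene expression in mouse fibroblasts on 2-colour Agilent arrays; its title concerns fibroblasts of tumours that do not respond to treatment against VEGF, the growth factor of blood vessels. On every array the Cy5 channel held fibroblast RNA and the Cy3 channel held Stratagene Universal Mouse Reference RNA, with no dye swap. The other sources were TAF-el4, also labelled resistant, and TAF-tib6 and NSF, both labelled sensitive. TAF is read here from the title as tumour-associated fibroblast, and EL4 is known as a T-cell lymphoma line of the mouse. What the other names stand for, and the strain, age, sex and culture of the cells, are not given in the sources used here. Nor do these sources say whether the 3 arrays per source stand for separate cultures or animals, so the p-values cover the spread from array to array, possibly a technical one.

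Fibroblasts build the matrix of a tissue and, in a tumour, also send signals to blood vessels and to immune cells. Among these signals are chemokines that call in neutrophils and monocytes, the cytokine interleukin 6 and acute phase proteins, whose genes are switched on by the transcription factor NF-kB. Cells that sense interferon, or foreign or misplaced nucleic acid, switch on another set of genes, most of them through a promoter element named ISRE, which binds the STAT and IRF transcription factors. Fibroblasts kept in culture are held back from division by the inhibitors encoded at the Cdkn2a and Cdkn2b locus and by the p53 pathway.

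Promoter stretches are shown for genes that carry the first 2 of these themes in the results below. The first 3 belong to antiviral genes with the largest differences between the sources, with each match to the ISRE core in capitals, that is TTTC, any 2 bases and TTTC again, read on both strands, with overlapping matches run together. The last 2 belong to an inflammatory chemokine and a cytokine that were chosen after their values were seen, with matches to the kB motif in capitals, that is GGG, any 2 bases and TTTCC, also read on both strands. All were taken from RefSeq promoter windows of build GRCm38.p6, which run from 250 bases before to 50 bases after the start of transcription, and are written 5′ to 3′ on the strand of the gene.
Ifit1, chr19:34640760-34640838, plus strand: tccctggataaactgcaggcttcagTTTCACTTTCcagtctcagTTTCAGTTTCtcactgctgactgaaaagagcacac
Gbp3, chr3:142559974-142560039, plus strand: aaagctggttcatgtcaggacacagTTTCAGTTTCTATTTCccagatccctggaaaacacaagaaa
Isg15, chr4:156200850-156200921, minus strand: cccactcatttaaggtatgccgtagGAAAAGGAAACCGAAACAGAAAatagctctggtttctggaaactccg
Cxcl1, chr5:90891131-90891208, plus strand: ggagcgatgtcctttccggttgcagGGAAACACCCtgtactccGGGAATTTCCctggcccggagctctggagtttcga
Il6, chr5:30013045-30013104, plus strand: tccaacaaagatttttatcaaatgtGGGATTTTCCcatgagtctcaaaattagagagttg

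Ifit1 holds 2 matches to the ISRE core at positions -104 to -76 from the start, Gbp3 holds 2 at -45 to -30 in 1 of its 2 windows and Isg15 holds 3 at -78 to -57. Over all genes of the promoter table, 3.99% hold such a match. Cxcl1 holds 2 matches to the kB motif and Il6 holds 1, where 1.89% of all genes hold one, while the window of Saa3 holds none of these letters. A match describes the letters of the window and is neither a site shown to be bound nor a cause of any difference.

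The arrays of TAF-tib42 resembled each other more than those of TAF-tib48 did. Log2 ratios over genes correlated at 0.976 to 0.978 between TAF-tib42 arrays, at 0.960 to 0.975 between TAF-tib48 arrays and at 0.885 to 0.906 between the sources. TAF-tib48 replicate 3 stood apart from its own group: it correlated with TAF-tib6 arrays at 0.895 to 0.907, against 0.864 to 0.882 for replicate 1 and 0.846 to 0.864 for replicate 2. Per the slide barcodes, the 3 TAF-tib42 arrays and TAF-tib48 replicate 1 were on 1 run of consecutive slides with TAF-el4 replicate 3, and TAF-tib48 replicates 2 and 3 on another run with the TAF-tib6 arrays. Where a named gene lost its call, or the count of a list moved by over 1.5 times, without replicate 3 or with the slide run as a block, that value is given. With the slide run as a block, the difference between the sources rests on TAF-tib48 replicate 1 alone, since it shares a run with TAF-tib42. Replicates 2 and 3 then add to the estimate of the spread but not to the difference. Median Cy5 intensity per array was 187 to 221 in TAF-tib42 and 198 to 286 in TAF-tib48, over a background of 52 to 53. All 20 fibroblast markers were well above background on every array of both sources, with Col1a1, Col1a2 and Vim saturated. That flag was carried by 89.5% to 95.6% of all probes per array, and by all 18 epithelial and all 16 adipocyte markers too. It therefore does not tell fibroblasts from other cells.

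Values below are log2 ratios of fibroblast to reference RNA per array, in the order of replicates 1 to 3, and differences between sources are log2 differences, TAF-tib42 minus TAF-tib48, with their SE. Genes with an adjusted p under 0.05 in limma's test over all genes were called, and called genes are described as higher or lower. In TAF-tib42, 2064 genes were higher (6.62% of 31200) and 2385 were lower (7.64%), 4449 in all (14.3%). A change of at least 2-fold was called for 103 higher and 80 lower genes (0.587%; 0.33% higher and 0.256% lower), and for 27% of genes the arrays of the 2 sources did not overlap. Among the 16523 genes with a symbol in the reference table, 18.5% were called, 7.9% higher and 10.6% lower. The shares of gene lists are to be read against these last values, since the lists hold such genes. TAF-tib42 and TAF-tib48 each differed in more genes from TAF-el4, the other resistant source, with 7185 (23%) and 7432 genes called (23.8%); these comparisons share arrays with the one described here.

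**Figure D1:**
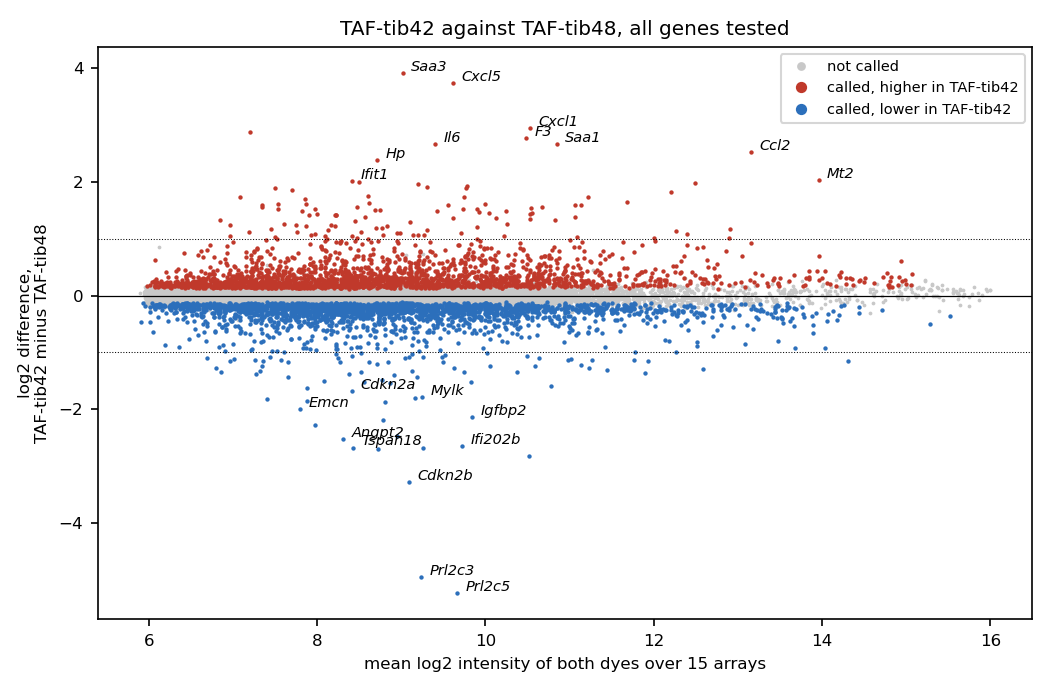
Log2 difference of TAF-tib42 minus TAF-tib48 (vertical axis) against mean log2 intensity of both dyes over 15 arrays (horizontal axis) for 31200 genes; grey points were not called, red were higher and blue lower in TAF-tib42, and dotted lines mark a 2-fold difference. Saa3 at 3.92 and Cxcl5 at 3.74 lie at the top, and Prl2c5 at -5.24 and Prl2c3 at -4.96 lie at the bottom.

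Acute phase genes were among those with the largest differences, higher in TAF-tib42 than in TAF-tib48. Saa3, an inflammation-induced serum amyloid A, had log2 ratios of 2.63, 2.28 and 1.73 in TAF-tib42, against -2.09, -2.05 and -0.98 in TAF-tib48. All TAF-tib42 arrays lay above all TAF-tib48 arrays, and the difference was 3.92 (SE 0.255, adjusted p = 2.34e-09), which is 15.1-fold. Its relative Saa1 had 2.02, 1.78 and 1.27 in TAF-tib42, against -1.15, -1.09 and -0.70 in TAF-tib48, a difference of 2.67 (SE 0.184, adjusted p = 5.34e-09), but a second, dimmer probe of Saa1 differed by only -0.05. Haptoglobin (Hp), which binds free haemoglobin, had 2.29, 2.35 and 1.88 in TAF-tib42, against -1.16, -1.05 and 1.58 in TAF-tib48. Here TAF-tib48 replicate 3 came close to the TAF-tib42 arrays: the difference was 2.38 (SE 0.441, adjusted p = 7.71e-04), and 3.28 without that array. The pentraxin Ptx3, a soluble pattern recognition protein, had 4.75, 4.70 and 4.67 in TAF-tib42, against 2.86, 2.85 and 2.94 in TAF-tib48, a difference of 1.82 (SE 0.115, adjusted p = 1.49e-09). The copper carrier Cp differed by 0.67 and the lipopolysaccharide-binding protein Lbp by 0.47. Of 13 acute phase genes tested, 6 were higher and 1 was lower in TAF-tib42 (53.8% called), with a median of 0.18 against 0.00 over all genes, and the lower call was lost with slide run as a block. Lcn2 differed by 0.18, Orm1 by 0.03 and Saa2 by -0.00, none of them called.

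Several chemokines that attract neutrophils and monocytes were higher in TAF-tib42 as well. The neutrophil chemokine Cxcl5 had 4.64, 4.25 and 4.27 in TAF-tib42, against 0.30, 0.07 and 1.56 in TAF-tib48, with a difference of 3.74 (SE 0.239, adjusted p = 1.79e-09), or 13.4-fold. Cxcl1, a second ligand of the neutrophil receptor Cxcr2, had 2.15, 2.01 and 1.79 in TAF-tib42, against -1.23, -1.05 and -0.60 in TAF-tib48 (difference 2.94, SE 0.117, adjusted p = 2.75e-12). For both genes the 2 groups were separated by a gap larger than the spread of either. The monocyte chemokine Ccl2 had 2.27, 2.31 and 1.97 in TAF-tib42, against -0.43, -0.38 and -0.21 in TAF-tib48 (difference 2.52, SE 0.097, adjusted p = 1.79e-12). Its neighbour in function, Ccl7, had 3.20, 3.03 and 3.03 in TAF-tib42, against 1.55, 1.51 and 1.52 in TAF-tib48 (difference 1.56), and the interferon-induced T-cell attractant Cxcl10 differed by 0.78. The homeostatic chemokine Cxcl12 went the other way, with -1.94, -2.02 and -2.14 in TAF-tib42, against -1.21, -1.27 and -0.21 in TAF-tib48. It was 2.2-fold lower in TAF-tib42 (difference -1.14, SE 0.174, adjusted p = 1.17e-04), and the difference was -0.79 without TAF-tib48 replicate 3. Of 31 chemokines and receptors, 10 were higher and 3 lower (41.9% called, median 0.02), and Cxcl2, Ccl3, Ccl4, Ccl11, Cxcl9 and Cxcr4 were not called, at 0.08, 0.10, 0.01, -0.08, -0.09 and -0.03.

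Il6, which induces the acute phase response in liver, had 4.24, 4.29 and 4.18 in TAF-tib42, against 1.6, 1.31 and 1.82 in TAF-tib48, a 6.33-fold difference (2.66, SE 0.1, adjusted p = 1.39e-12). No other tested member of its family or of the colony-stimulating factors was called: Lif differed by -0.08, Il11 by -0.01, Csf1 by -0.02, Csf2 by -0.08 and Csf3 by 0.08. The upstream inflammatory cytokines were not called either, with Tnf at -0.02, Il1a at 0.04, Il1b at 0.01 and Il33 at -0.11. The interleukin 4 receptor chain Il4ra differed by 0.60, and the B-cell survival factor Tnfsf13b by 0.34. Osteopontin (Spp1) had -6.30, -6.17 and -6.06 in TAF-tib42, against -4.97, -5.18 and -4.90 in TAF-tib48, a difference of -1.16, so that it lay far below the reference RNA in both. Il34, a ligand of the receptor Csf1r, differed by -0.47. Of 30 cytokines and receptors, 6 were higher and 3 lower (30% called, median 0.01). The coagulation starter tissue factor (F3) was also higher in TAF-tib42, at 2.91, 3.12 and 2.89, against -0.18, -0.20 and 0.99 in TAF-tib48 (difference 2.77, SE 0.199, adjusted p = 8.91e-09), and by 2.56 at its second probe. Its means were 3.24 in TAF-el4, 3.21 in TAF-tib6 and 3.78 in NSF, so TAF-tib48 was the low source.

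Among the acute phase and chemokine genes TAF-tib48 departed from the mean of the other 3 sources more often than TAF-tib42 did. Each of the 6 acute phase genes that were higher in TAF-tib42 was lower in TAF-tib48 than in the mean of TAF-el4, TAF-tib6 and NSF (adjusted p under 0.05). In TAF-tib42, 2 of the 6 were higher than in that mean. The same held for 9 and 5 of the 10 chemokines. These genes were chosen as higher in TAF-tib42 than in TAF-tib48, which favours both counts. Over all genes, without that choice, 28% were called in either direction between TAF-tib48 and that mean, and 26.4% between TAF-tib42 and it. These shares are therefore no yardstick for the counts. Saa3 had means of 2.21 in TAF-tib42 and -1.70 in TAF-tib48, beside -0.67 in TAF-el4, 1.99 in TAF-tib6 and 3.24 in NSF. Il6 had means of 4.24 in TAF-tib42 and 1.58 in TAF-tib48, beside 2.80 in TAF-el4, 3.72 in TAF-tib6 and 5.15 in NSF. In both genes TAF-tib42 lay near the sensitive sources, and TAF-tib48 was the lowest of the 5. TAF-el4 was low as well for several of these genes, so that low values were not particular to TAF-tib48: Cxcl1 had means of 1.98 in TAF-tib42 and -0.96 in TAF-tib48, beside -0.83 in TAF-el4, 1.95 in TAF-tib6 and 2.67 in NSF. Without TAF-tib48 replicate 3, 6 acute phase genes and 9 chemokines were higher, and with slide run as a block 6 and 8.

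**Figure D2:**
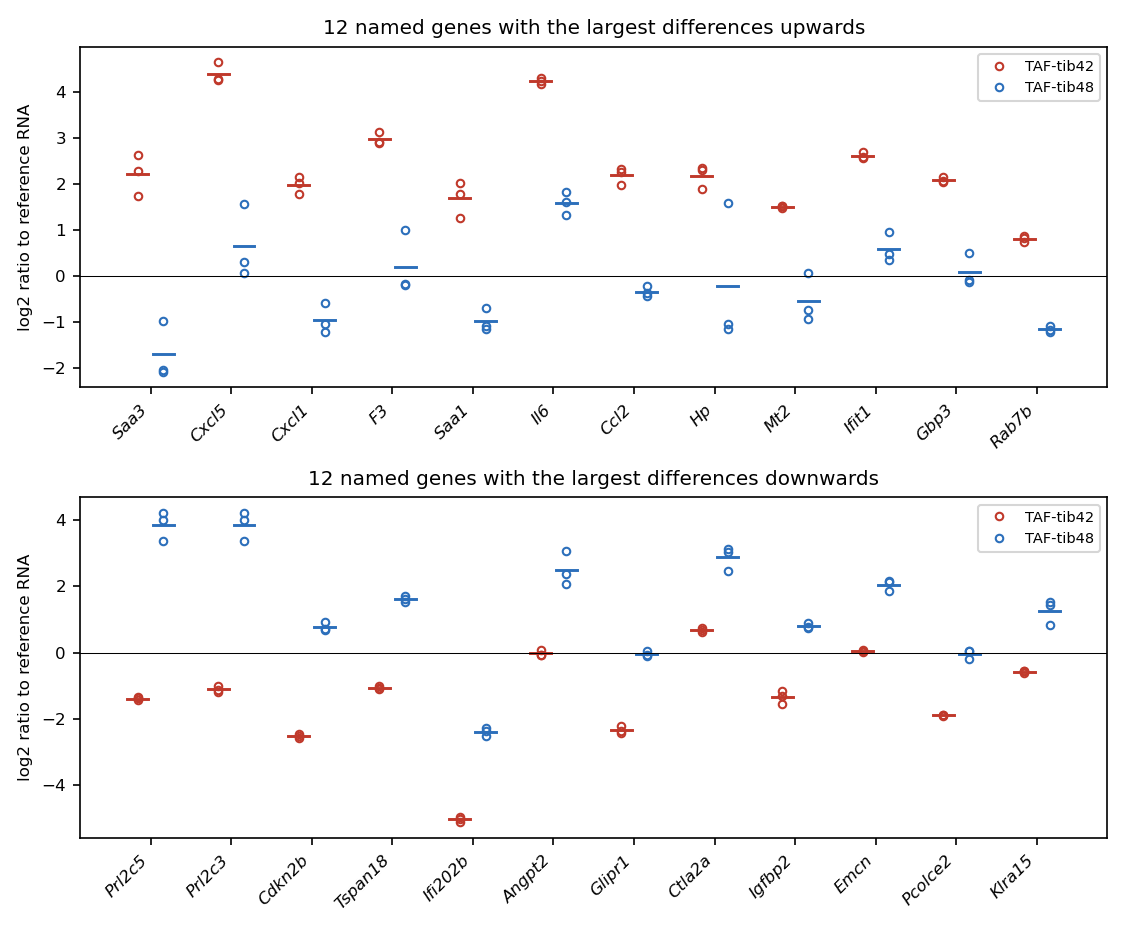
Log2 ratio to the reference RNA on each array (circles) and the mean (bars) for the 12 named genes with the largest differences upwards (top) and downwards (bottom), TAF-tib42 in red to the left of TAF-tib48 in blue. No gene shown has overlapping groups, and 1 TAF-tib48 array lies near TAF-tib42 for Hp, at 1.58.

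Interferon-stimulated genes were higher in TAF-tib42 as a broad group. Of 55 interferon response genes tested, 38 were called and each was higher in TAF-tib42 (69.1%), 18 of them at least 2-fold, with a median of 0.61. Without TAF-tib48 replicate 3 the count was 39, and with slide run as a block 36. Antiviral effectors made up most of them, with 22 of 31 higher. Ifit1, which binds viral RNA that lacks the host cap, had 2.69, 2.55 and 2.57 in TAF-tib42, against 0.48, 0.34 and 0.96 in TAF-tib48 (difference 2.01, SE 0.171, adjusted p = 8.43e-08). The guanylate-binding GTPase Gbp3 had 2.05, 2.14 and 2.03 in TAF-tib42, against -0.09, -0.14 and 0.49 in TAF-tib48 (difference 1.99, SE 0.157, adjusted p = 3.28e-08). Isg15, a ubiquitin-like protein attached to others after interferon, had 2.79, 2.73 and 2.71 in TAF-tib42, against 0.72, 0.61 and 1.18 in TAF-tib48 (difference 1.91, SE 0.17, adjusted p = 1.5e-07). In these 3 genes the TAF-tib42 arrays lay close together, and TAF-tib48 replicate 3 was the highest of its group.

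Iigp1, an immunity-related GTPase, differed by 1.62 (SE 0.15), the virion tether Bst2 by 1.6 (SE 0.108), the dynamin-like Mx2 by 1.56 (SE 0.0871) and the ADP-ribosyltransferase Parp14 by 1.55 (SE 0.0917). Oasl2, related to the oligoadenylate synthetases, differed by 1.53 over 2 TAF-tib42 and 3 TAF-tib48 arrays, since the spot of the other TAF-tib42 array was left out as an outlier. Rtp4 differed by 1.5, over 3 TAF-tib42 and 2 TAF-tib48 arrays for the same reason. Several classical effectors were not called: Mx1 differed by 0.04, Rsad2 by 0.02, Oas3 by 0.05, Ifi27 by 0.02 and Gbp2 by -0.02. Genes of the same family thus lay on both sides of the threshold, Mx2 beside Mx1 and Gbp3 beside Gbp2.

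Sensors and signalling factors of the pathway were higher in TAF-tib42 too. Of 8 sensors of foreign nucleic acid, 7 were called higher, among them Dhx58, a helicase that tunes the RNA sensors, with 1.49, 1.53 and 1.51 in TAF-tib42, against 0.19, 0.08 and 0.49 in TAF-tib48 (difference 1.26, SE 0.0962, adjusted p = 2.18e-08). Of 10 signalling factors, 7 were called higher. Trim30a, a regulator of innate signalling, had 1.98, 2.14 and 2.02 in TAF-tib42, against -0.04, 0.14 and 0.37 in TAF-tib48 (difference 1.89, SE 0.0922, adjusted p = 1.14e-10). Usp18, which removes Isg15 from proteins and damps interferon signalling, had 0.54, 0.45 and 0.51 in TAF-tib42, against -1.06, -1.11 and -0.83 in TAF-tib48 (difference 1.5, SE 0.126). Among the ligands and their receptors 2 of 6 were called higher, and the ligands themselves were not: Ifnb1 differed by 0.11 and Ifna4 by 0.02. Irf1 and Irf3, transcription factors of the pathway, differed by 0.06 and -0.00 and were not called either.

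Among the interferon response genes TAF-tib42 departed from the mean of the other 3 sources more often than TAF-tib48 did. Of the 38 genes, 33 were higher in TAF-tib42 than in the mean of TAF-el4, TAF-tib6 and NSF, and 10 were lower in TAF-tib48 than in that mean. The 38 were chosen as higher in TAF-tib42 than in TAF-tib48, which favours both counts. Ifit1 had means of 2.61 in TAF-tib42 and 0.59 in TAF-tib48, beside -0.26 in TAF-el4, 0.28 in TAF-tib6 and 0.83 in NSF. Isg15 had 2.74 in TAF-tib42 and 0.84 in TAF-tib48, beside 0.44 in TAF-el4, 0.65 in TAF-tib6 and 0.74 in NSF. For both genes TAF-tib42 was the highest of the 5 sources. Of the 28 higher genes with a promoter window, 15 hold the ISRE core (53.6%), against 5 of the 15 uncalled genes with a window (33.3%). The same motif was held by 3 of 11 higher antigen presentation genes with a window (27.3%) and by 2 of 5 uncalled ones (40%). The kB motif was held by 3 of 6 higher and 1 of 14 uncalled chemokine genes with a window, and by 1 of 5 uncalled acute phase genes but not in the windows of the 4 higher ones.

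**Figure D3:**
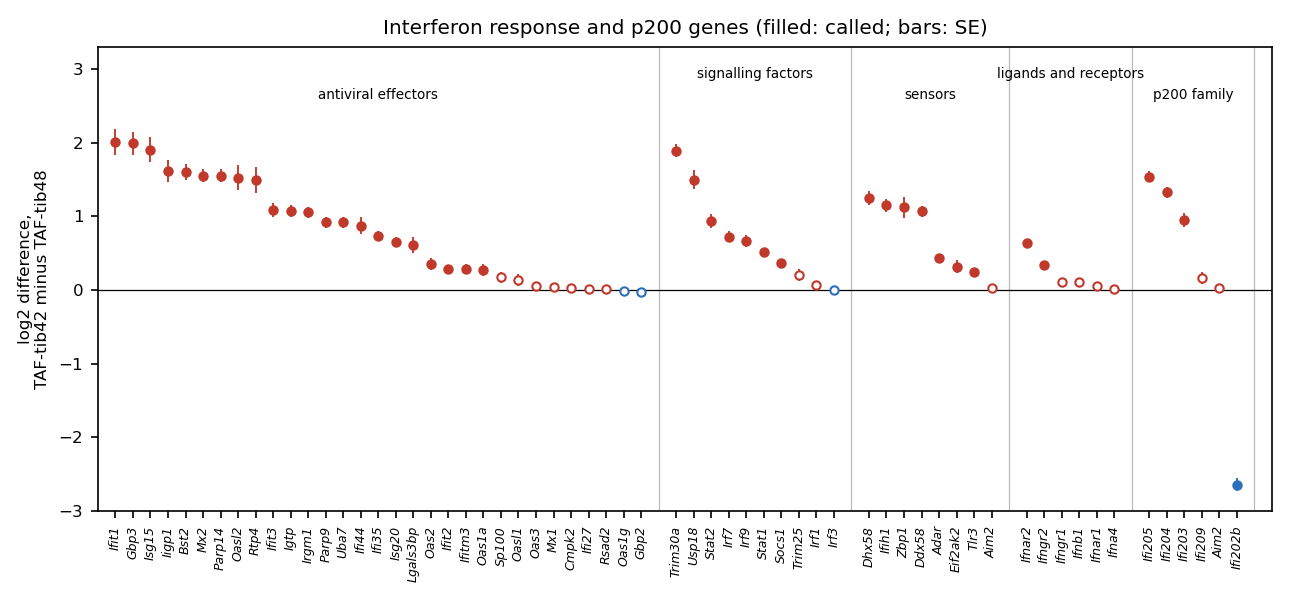
Log2 difference of TAF-tib42 minus TAF-tib48 (vertical axis, bars are SE) for interferon response genes grouped by role and for the p200 family; filled points were called. Among the interferon response genes the called points lie above 0, with Ifit1 highest at 2.01, and among the p200 family Ifi202b lies at -2.64 below the others.

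The p200 family, interferon-inducible proteins that bind DNA, was split. Ifi205 had 2.55, 2.59 and 2.34 in TAF-tib42, against 0.90, 0.92 and 1.04 in TAF-tib48 (difference 1.54, SE 0.0773, adjusted p = 6.94e-11). Ifi204 differed by 1.33 (SE 0.078) and Ifi203 by 0.95 (SE 0.0914), both higher in TAF-tib42. Ifi202b, which lacks the domain that its relatives use to assemble and is known in mice as a lupus susceptibility gene, went the other way. It had -4.94, -5.12 and -5.02 in TAF-tib42, against -2.51, -2.36 and -2.27 in TAF-tib48, a 6.24-fold lower value in TAF-tib42 (difference -2.64, SE 0.089, adjusted p = 3.66e-13). Its mean was -5.01 in TAF-el4 and -5.14 in NSF, close to TAF-tib42, but -0.31 in TAF-tib6, so that the 5 sources fell at 3 separate levels. The DNA sensor Aim2 (0.02) was not called, but its probe was dim, with a mean log2 intensity of 6.19 over both dyes against 10.83 for Ifi204. Of 6 family members 3 were higher and 1 lower.

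The class I pathway, which shows peptides of the cell's own proteins to T cells, was higher in TAF-tib42. Of 22 antigen presentation genes 13 were higher and 1 was lower (63.6% called, median 0.31). Psmb8, an interferon-induced proteasome subunit, had 0.60, 0.60 and 0.54 in TAF-tib42, against -1.21, -1.21 and -0.66 in TAF-tib48 (difference 1.61, SE 0.0982, adjusted p = 9.8e-10). The class I heavy chain H2-D1 had 0.21, 0.16 and 0.09 in TAF-tib42, against -1.52, -1.53 and -1.26 in TAF-tib48 (difference 1.59, SE 0.0567, adjusted p = 7.17e-13). Class I genes are near-identical to each other and differ between mouse strains, so a probe may read several of them or read 1 allele better. The proteasome subunit Psmb9 differed by 0.82, the peptide transporters Tap1 and Tap2 by 0.67 and 0.63, and H2-Q7 by 0.71. Of 7 class I chains 6 were higher, and of 10 genes of peptide supply 7 were. Of 5 class II genes listed, which are normally used by professional antigen-presenting cells, H2-Ab1 was lower at -0.22, a call that was lost without TAF-tib48 replicate 3 and with slide run as a block, and Ciita (0.04), H2-Aa (0.02) and Cd74 (0.01) were not called. H2-DMb1, a class II accessory chain outside the list that was named after its values were seen, averaged -0.65 ± 0.02 in TAF-tib42 and 0.49 ± 0.13 in TAF-tib48 (SD, n = 3 each), a difference of -1.14 (SE 0.0518, adjusted p = 1.66e-11 in limma's test).

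Complement, the cascade of serum proteins that tags targets for removal, was split between components and inhibitors. Of 11 components 5 were called, all of them higher in TAF-tib42. C1ra, a protease of the first complex, had 0.30, 0.36 and 0.32 in TAF-tib42, against -1.2, -1.59 and -0.64 in TAF-tib48 (difference 1.47, SE 0.149, adjusted p = 8.31e-07). Factor B (Cfb), the protease of the alternative pathway, had 1.2, 1.34 and 1.25 in TAF-tib42, against 0.07, -0.18 and 0.17 in TAF-tib48 (difference 1.25, SE 0.08). The central component C3 had -1.80, -2.03 and -2.13 in TAF-tib42, against -3.36, -3.28 and -2.01 in TAF-tib48, and its groups overlapped. It differed by 0.90 (SE 0.22, adjusted p = 0.00857), by 1.33 without TAF-tib48 replicate 3, and by 0.15 with no call at its second probe. Leaving out TAF-tib48 replicate 1 or 2 ended its call (adjusted p = 0.058 and 0.0574). C1s1 differed by 0.77. Of 9 inhibitors and receptors 3 were lower and 1 higher. Cd59a, which blocks the pore at the end of the cascade, differed by -0.60.

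The inhibitors of cell division encoded at the Cdkn2a and Cdkn2b locus were low in TAF-tib42. Cdkn2b, which encodes p15, had -2.44, -2.57 and -2.51 in TAF-tib42, against 0.69, 0.72 and 0.91 in TAF-tib48. It was 9.72-fold lower in TAF-tib42 (difference -3.28, SE 0.0547, adjusted p = 2.86e-17). Cdkn2a, which encodes p16 and p19ARF, had -1.89, -1.80 and -2.14 in TAF-tib42, against -0.55, -0.30 and 0.04 in TAF-tib48 (difference -1.67, SE 0.118, adjusted p = 6.87e-09). In both genes TAF-tib42 was the lowest of the 5 sources: the means of Cdkn2b were 0.35 in TAF-el4, 0.98 in TAF-tib6 and 0.73 in NSF, and those of Cdkn2a were 0.41, 0.99 and 0.20 in the same order. In the reference table Mtap is the gene next to Cdkn2a; it differed by -0.46 (SE 0.0591, adjusted p = 1.62e-05). Further neighbours were not called, with Ifna1 at -0.09, Zfp352 at -0.06 and Elavl2 at -0.11. Cdkn1c differed by -0.30, with adjusted p = 0.146 when slide run was a block, and Cdkn1b was not called at 0.15.

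Of 28 regulators and targets of p53, 8 were lower and 2 higher in TAF-tib42, with a median of -0.04. The RNA-binding protein Zmat3 had -0.76, -0.81 and -0.71 in TAF-tib42, against 0.23 and 0.41 in TAF-tib48 replicates 2 and 3, the spot of replicate 1 being left out (difference -1.07, SE 0.0545, adjusted p = 1.97e-10). Cyclin G1 (Ccng1) had -0.61, -0.45 and -0.66 in TAF-tib42, against 0.24, 0.19 and 0.33 in TAF-tib48 (difference -0.83, SE 0.0617), and differed by -0.41 at its second probe. Phlda3, an inhibitor of Akt, differed by -0.79 (SE 0.0478). The cell cycle inhibitor p21 (Cdkn1a) had -0.09, -0.23 and -0.11 in TAF-tib42, against 0.32, 0.33 and 0.34 in TAF-tib48 (difference -0.47, SE 0.0539, adjusted p = 4.07e-06). Pmaip1, which promotes apoptosis, differed by -0.53. Mdm2, which removes p53, differed by -0.50, but by -0.03 with no call at a second probe. Trp53inp1 and Aen differed by -0.42 and -0.36, with adjusted p = 0.0689 and 0.0816 when slide run was a block. Trp53 itself was not called (0.01), nor were Bax (-0.08), Bbc3 (0.10) and Sesn2 (0.09). The stress gene Gadd45b was higher, by 0.60. Of 35 p53 targets and CDK inhibitors 12 were lower and 2 higher (40% called, median -0.04). Each of the 12 was also lower in TAF-tib42 than in the mean of the other 3 sources. The choice of these genes as lower in TAF-tib42 than in TAF-tib48 favours this count.

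Few genes of the cell cycle were called, and the D-type cyclins led them. Cyclin D2 (Ccnd2), which drives entry into the cycle, had 0.57, 0.33 and 0.54 in TAF-tib42, against 1.83, 1.88 and 1.82 in TAF-tib48 (difference -1.36, SE 0.0539, adjusted p = 2.64e-12). Cyclin D1 (Ccnd1) had -1.07, -0.97 and -1.11 in TAF-tib42, against 0.36, 0.54 and -0.01 in TAF-tib48 (difference -1.35, SE 0.0889, adjusted p = 2.86e-09). The mitotic cyclin Ccnb2 differed by -0.52, a call that was lost with the Cy5 channel alone, and the G1 cyclin Ccne1 by -0.23, or -0.13 with no call at a second probe. Of 52 cell cycle genes 4 were lower and 1 higher (9.62% called, median -0.00), a smaller share than that of all genes with a symbol. This count rested on TAF-tib48 replicate 3: without that array 16 members were lower. The 1 higher call was lost without it, and also with slide run as a block. Markers of proliferation such as Top2a (-0.04), Mcm6 (0.04), Ccna2 (0.04) and Plk1 (0.01) were not called over all arrays.

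The proliferins had the largest differences of all named genes. These prolactin-like hormones of the Prl2c family are made by the mouse placenta and by dividing fibroblasts, and proliferin is known to promote growth of blood vessels. Prl2c5 had -1.35, -1.38 and -1.44 in TAF-tib42, against 3.99, 4.21 and 3.36 in TAF-tib48, which makes it 37.8-fold lower in TAF-tib42 (difference -5.24, SE 0.137, adjusted p = 9.42e-15). Prl2c3 had -1.2, -1.0 and -1.11 in TAF-tib42, against 4.0, 4.19 and 3.38 in TAF-tib48 (difference -4.96, SE 0.137, adjusted p = 2.08e-14). Each probe may read both of these similar genes; further probes differed by -3.88 for Prl2c5 and by -3.22 and -3.12 for Prl2c3. The mean of Prl2c5 was 4.17 in TAF-el4, 1.45 in TAF-tib6 and 1.55 in NSF, so that TAF-tib42 was the lowest and TAF-tib48 was next to TAF-el4. Genes beside the cluster in the reference table were not lower to this extent: Lgals8 differed by 0.07, Edaradd by -0.02 and Gpr137b by -0.10 without a call, Ero1b by -0.17, and the basement membrane gene Nid1 by -0.81.

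Growth factors of blood vessels and their modulators changed in both directions, with 12 of 60 higher and 15 lower in TAF-tib42 (45% called, median -0.02). Angiopoietin 2 (Angpt2), a ligand that loosens vessels through the receptor Tie2, had -0.08, -0.06 and 0.07 in TAF-tib42, against 2.37, 2.07 and 3.05 in TAF-tib48 (difference -2.52, SE 0.149, adjusted p = 6.41e-10). TAF-tib48 was the highest of the 5 sources for this gene, with means of -0.04 in TAF-el4, 1.11 in TAF-tib6 and 1.09 in NSF. Gas6, the ligand of the receptor Axl, had 0.00, 0.26 and 0.07 in TAF-tib42, against 1.03, 0.71 and 1.98 in TAF-tib48. It differed by -1.13 (SE 0.194, adjusted p = 3.86e-04), by -0.76 without TAF-tib48 replicate 3, and by -0.92 with adjusted p = 0.0593 when slide run was a block. Fgf7, a fibroblast growth factor for epithelial cells, had 1.81, 1.85 and 1.77 in TAF-tib42, against 0.95, 1.06 and 0.90 in TAF-tib48 (difference 0.83, SE 0.0477). The vasodilator adrenomedullin (Adm) differed by 0.53.

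Some ligands of the PDGF and VEGF families, Pdgfc, Vegfa and Pdgfa, were slightly higher in TAF-tib42. Pdgfc, a ligand of the PDGF receptors, had 0.30, 0.24 and 0.30 in TAF-tib42, against -0.08, -0.06 and -0.36 in TAF-tib48 (difference 0.45, SE 0.0645, adjusted p = 5.99e-05), and 0.26 at its second probe. Vegfa had 0.36, 0.37 and 0.35 in TAF-tib42, against 0.06, -0.07 and 0.10 in TAF-tib48 (difference 0.33, SE 0.0478, adjusted p = 6.16e-05), and 0.30 and 0.54 at its other probes. Pdgfa had 0.88, 0.87 and 0.78 in TAF-tib42, against 0.65, 0.69 and 0.45 in TAF-tib48 (difference 0.25, SE 0.0527, adjusted p = 0.00262), with adjusted p = 0.154 when slide run was a block. At the probe that stood for each gene, the difference was under 1.4-fold, while 1 further probe of Vegfa, at 0.54, exceeded that. Pdgfb (-0.01), Pdgfd (-0.14), Vegfc (0.10) and Fgf2 (-0.10) were not called.

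Of 17 receptors 2 were higher and 4 lower, and of 18 inhibitors and modulators 3 were higher and 8 lower, beside 7 and 3 of 25 ligands. Flt1, a VEGF receptor, had -1.07, -1.19 and -1.06 in TAF-tib42, against -0.23, -0.36 and -0.14 in TAF-tib48 (difference -0.87, SE 0.0527, adjusted p = 9.25e-10), and Kdr, the main signalling receptor of VEGF, was not called at 0.01. Pdgfra differed by 0.63 and Egfr by 0.91, but other probes of both genes differed by -0.02 to 0.02. Pdgfrb was not called (0.06). Igfbp2, a carrier of insulin-like growth factors, had -1.15, -1.31 and -1.55 in TAF-tib42, against 0.74, 0.76 and 0.90 in TAF-tib48 (difference -2.13, SE 0.0771, adjusted p = 8.65e-13). Its relative Igfbp4 differed by -1.35 (SE 0.107), and by -0.58 at its second probe. The angiogenesis inhibitor Thbs1 had 2.72, 2.88 and 2.69 in TAF-tib42, against 1.70, 1.74 and 1.92 in TAF-tib48 (difference 0.98, SE 0.0776), while Timp3, an inhibitor of metalloproteinases and of VEGF binding, differed by -0.88 (SE 0.0761). Pdgfrl, a receptor-like protein, differed by -0.91.

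**Figure D4:**
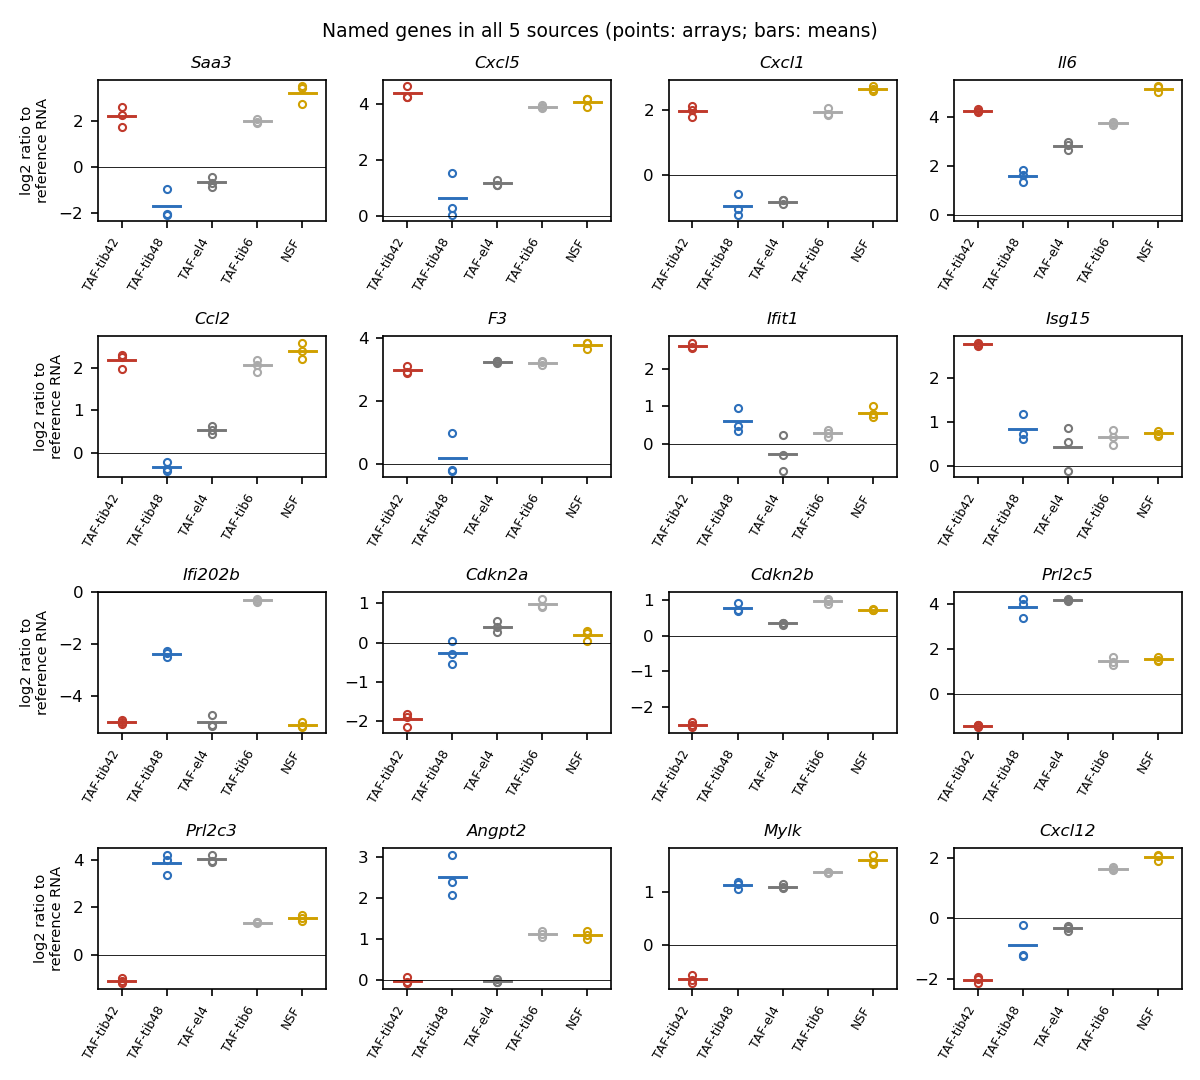
Log2 ratio to the reference RNA on each array (circles) and mean (bars) in the 5 sources, TAF-tib42, TAF-tib48, TAF-el4, TAF-tib6 and NSF from left to right, for 16 named genes, each with its own vertical scale. Ifit1 and Isg15 are raised in TAF-tib42, Cdkn2a and Cdkn2b are lowest there, and Ccl2 and F3 are lowest in TAF-tib48.

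Endothelial markers lay lower in TAF-tib42. Of 20 such genes 10 were called and each was lower (50%, median -0.20), and without TAF-tib48 replicate 3 the count was again 10. Endomucin (Emcn), a surface protein of capillaries and veins, had 0.04, 0.09 and 0.01 in TAF-tib42, against 2.13, 2.15 and 1.85 in TAF-tib48 (difference -2.0, SE 0.0615, adjusted p = 8.88e-14). The endothelial cadherin Cdh5 differed by -0.65 (SE 0.0517), but by -0.20 at its second probe. The transcription factor Erg differed by -0.70 but by -0.04 at a second probe, the secreted Egfl7 by -0.61 and the angiopoietin receptor Tek by -0.46. Other markers of the list were not called, among them Pecam1 (-0.05), Kdr (0.01), Tie1 (-0.05), Cldn5 (-0.03) and Vwf (-0.04). Together the 20 markers took up 0.0135% to 0.0149% of the Cy5 signal on TAF-tib42 arrays and 0.0216% to 0.0242% on TAF-tib48 arrays, against 1.45% to 1.63% and 1.24% to 1.64% for 20 fibroblast markers. Net Cy5 intensity, before the offset, the dye normalisation and division by the reference that give the log2 ratios, was for Pecam1 18 to 49 in TAF-tib42 and 70 to 108.6 in TAF-tib48, near the local background of 52 to 53, and for Emcn 173.7 to 230.4 in TAF-tib42 and 819 to 1632.3 in TAF-tib48. The part of endothelial cells in these differences was not tested, and more such cells cannot be told apart from more of these RNAs per fibroblast.

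Contractile genes of myofibroblasts, the fibroblasts that close wounds and stiffen tissue, were more often lower than higher in TAF-tib42, with 12 of 23 lower and 3 higher (65.2% called, median -0.21), or 11 and 1 with slide run as a block. Mylk, the kinase that activates myosin, had -0.67, -0.57 and -0.72 in TAF-tib42, against 1.2, 1.06 and 1.16 in TAF-tib48 (difference -1.79, SE 0.0516, adjusted p = 3.53e-14), and -1.93 at its second probe. Calponin 1 (Cnn1), which binds actin in smooth muscle, had 2.48, 2.36 and 2.54 in TAF-tib42, against 3.64, 3.75 and 3.36 in TAF-tib48 (difference -1.12, SE 0.0852, adjusted p = 1.92e-08). The cofactor Fhl2 differed by -0.66 and Csrp2, a LIM protein of smooth muscle, by -0.62. The defining actin of myofibroblasts, Acta2, was not called at 0.08, nor were Actg2 (-0.19), Des (-0.03) and Vcl (-0.10). Of 11 pericyte and smooth muscle markers 5 were lower and 1 higher, among them Mcam at -0.74 (-0.22 at its second probe), Notch3 at -0.43, Rgs5 at -0.21 and Cspg4 at 0.34.

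Collagens were split by type. Of 7 fibrillar collagens 3 were called, each higher in TAF-tib42, and of 6 basement membrane collagens 3 were called, each lower. Col3a1, a fibrillar collagen, was saturated on all 3 TAF-tib42 arrays and was at least 1.59-fold higher there by its Cy5 signal alone, a saturated spot being taken at its value (adjusted p of the ratio = 1.13e-04), with 0.32 at its second probe. Col5a2, which nucleates fibrils, had 3.10, 3.08 and 2.90 in TAF-tib42, against 2.41, 2.37 and 2.54 in TAF-tib48 (difference 0.59, SE 0.0633), and the fibril-associated Col12a1 differed by 0.64. Col4a1, a chain of the basement membrane network, had 1.4, 1.57 and 1.46 in TAF-tib42, against 2.18, 2.13 and 2.05 in TAF-tib48 (difference -0.64, SE 0.0561), and Col15a1 differed by -0.87, or by -0.15 at its second probe. Col14a1 differed by -1.1, but not at a second probe (0.07). Of all 24 collagens 6 were higher and 5 lower (45.8% called, median 0.08). Col1a1 and Col1a2 were not called at 0.12 and 0.07. Their Cy5 signal was saturated on every array of both sources, so a difference in it could not be seen.

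Enzymes that modify and cross-link collagen were more often higher, with 7 of 17 higher and 1 lower (47.1% called, median 0.12). Lysyl oxidase (Lox), which starts cross-links, had 2.64, 2.74 and 2.44 in TAF-tib42, against 1.52, 1.49 and 1.78 in TAF-tib48 (difference 1.01, SE 0.0743, adjusted p = 1.27e-08), and Loxl1 differed by 0.73. The prolyl hydroxylase P4ha2 differed by 0.63 and the transglutaminase Tgm2 by 0.54, although other probes of Tgm2 differed by -0.00 and 0.06. Pcolce2, which enhances the trimming of procollagen, was the 1 that was lower, with -1.87, -1.90 and -1.88 in TAF-tib42, against 0.04, 0.05 and -0.19 in TAF-tib48 (difference -1.85, SE 0.065, adjusted p = 6.07e-13).

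Other matrix genes moved in both directions, with 11 of 50 proteoglycans and glycoproteins higher and 10 lower (42% called, median 0.01). The laminin chain Lama4 had 3.05, 3.02 and 2.81 in TAF-tib42, against 1.31, 1.1 and 1.38 in TAF-tib48 (difference 1.69, SE 0.09, adjusted p = 1.43e-10), and 1.56 and 0.63 at its other probes. Ccn2, a matricellular protein induced by TGF-beta, differed by 1.02 (SE 0.0952), and the proteoglycan Ogn by 0.90 (SE 0.142). Prelp, another leucine-rich proteoglycan, differed by 0.95 and by 0.13 with no call at a second probe. Matrix Gla protein (Mgp), an inhibitor of calcification, had -0.90, -0.94 and -0.91 in TAF-tib42, against 0.06, -0.25 and 0.33 in TAF-tib48 (difference -0.96, SE 0.103), and Efemp1 differed by -0.82. Decorin (Dcn), lumican (Lum) and fibronectin (Fn1) were not called, at -0.06, 0.01 and 0.11.

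Among matrix proteases and their inhibitors 7 of 34 were higher and 8 lower (44.1% called, median -0.03). The gelatinase Mmp2 had 0.57, 0.51 and 0.39 in TAF-tib42, against -0.56, -0.48 and -0.14 in TAF-tib48 (difference 0.88, SE 0.0874), and the aggrecanase Adamts5 differed by 0.66. Timp2, an inhibitor of these proteases, had 1.41, 1.38 and 1.48 in TAF-tib42, against 2.21, 2.24 and 2.37 in TAF-tib48 (difference -0.85, SE 0.047, adjusted p = 2.56e-10). Of 5 inhibitors 3 were called, each of them lower in TAF-tib42. The protein C receptor Procr, which restrains coagulation, had -0.97, -1.13 and -1.2 in TAF-tib42, against 0.40, 0.51 and 0.11 in TAF-tib48 (difference -1.44, SE 0.0758, adjusted p = 1.24e-10), opposite to tissue factor. Of 24 integrins and adhesion genes 2 were higher and 6 lower (33.3% called, median -0.04). Cdh13 differed by 0.66 and Itga6, a laminin receptor chain, by -0.54, and the probes of Cdh11 disagreed in sign, at 0.68, 0.73 and -0.67.

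Signalling pathways of mesenchymal cells showed single large differences rather than a common shift. Of 43 TGF-beta and BMP genes 5 were higher and 10 lower (34.9% called, median -0.03), or 3 and 8 with slide run as a block. Id1, an immediate target of BMP signals that blocks differentiation factors, had -2.88, -2.81 and -2.87 in TAF-tib42, against -1.23, -1.02 and -1.52 in TAF-tib48 (difference -1.6, SE 0.0833, adjusted p = 1.1e-10). Its relative Id4 had 3.67, 3.85 and 3.79 in TAF-tib42, against 2.13, 1.91 and 2.38 in TAF-tib48 (difference 1.63, SE 0.0829, adjusted p = 8.13e-11), and Id3 differed by -0.55. The BMP antagonist Grem1 differed by -0.74 and the inhibitory Smad6 by -0.39. Among 41 Wnt genes 7 were higher and 8 lower (36.6% called, median -0.02). The ligand Wnt4 had -0.62, -0.73 and -0.73 in TAF-tib42, against 0.50, 0.20 and 0.68 in TAF-tib48 (difference -1.15, SE 0.0786), Wnt2 differed by -0.81, the antagonists Dkk3 and Dkk2 by -0.86 and -0.66, and the receptor Lgr5 by 0.59; with slide run as a block 5 were higher and 4 lower. Of 21 Notch and Hedgehog genes 5 were higher and 3 lower (38.1% called), each by less than 1.5-fold over all arrays. Without TAF-tib48 replicate 3, 3 were higher and 3 lower, and with slide run as a block 1 was higher and 2 lower.

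Positional and lineage genes also differed singly. Of 37 Hox genes 4 were lower and 1 higher (13.5% called, median -0.02), led by Hoxa11, a gene of the limb and the uterus. It had -1.36, -1.51 and -1.5 in TAF-tib42, against -0.09, -0.01 and -0.10 in TAF-tib48 (difference -1.39, SE 0.0509, adjusted p = 9.79e-13), and Hoxb9 differed by -0.63. The higher member, Hoxb2 (0.18), was no longer called without TAF-tib48 replicate 3 (adjusted p = 0.0563) or with slide run as a block (0.384). Of 56 mesenchymal transcription factors 11 were higher and 9 lower (35.7% called, median 0.01). The cartilage regulator Sox9 had -0.33, -0.10 and -0.18 in TAF-tib42, against 1.24, 1.26 and 1.07 in TAF-tib48 (difference -1.39, SE 0.0652), and its other probes differed by -1.29 and 0.05. Twist1, a factor of early mesoderm, differed by 1.07 (SE 0.0805) and Prrx2, a homeobox factor of limb and skin mesenchyme, by -0.70. Of 35 axon guidance genes 6 were higher and 11 lower (48.6% called, median -0.02), among them the semaphorin Sema3c at 1.12, the semaphorin receptor subunit Plxna2 at -0.98, the guidance ligand Slit2 at -0.65 and the ephrin receptor Epha4 at -0.94, or -0.22 with no call at its second probe. With slide run as a block 2 were higher and 8 lower.

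Sterol and fatty acid genes were modestly higher in TAF-tib42. Of 42 tested, 20 were higher and 2 lower (52.4% called, median 0.15), and without TAF-tib48 replicate 3 the counts were 21 and 2, and with slide run as a block 17 and 1. The desaturase Scd2 had -0.11, -0.01 and 0.03 in TAF-tib42, against -0.72, -0.90 and -0.82 in TAF-tib48 (difference 0.79, SE 0.0548, adjusted p = 6.01e-09). Hmgcs1, an early enzyme of cholesterol synthesis, differed by 0.61 (SE 0.0422) and by 0.13 with no call at a second probe, and Dhcr7, its last step, differed by 0.49 and 0.04. Ch25h, which makes an oxysterol and is induced by interferon, had 0.77, 0.71 and 0.52 in TAF-tib42, against -0.07, -0.15 and -0.11 in TAF-tib48 (difference 0.78, SE 0.0845), and the cholesterol exporter Abca1 differed by 0.64. No member reached a 2-fold difference. The lipoprotein lipase Lpl had 2.48, 2.49 and 2.31 in TAF-tib42, against 0.87, 0.76 and 1.58 in TAF-tib48 (difference 1.36, SE 0.137), and the fatty acid binding protein Fabp4 differed by 1.15, with 1.54 and 0.22 at its other probes. Of 16 adipocyte markers, these 2 were higher and 2 were lower (25% called). Without TAF-tib48 replicate 3 the counts were 4 and 1, and with slide run as a block 3 and 1. Adipoq was at 48.3 to 103.9 net Cy5 intensity on all 6 arrays.

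Stress genes were called in both directions. Ier3, an early gene that protects from apoptosis and a target of NF-kB, had 0.37, 0.30 and 0.40 in TAF-tib42, against -1.13, -1.07 and -1.09 in TAF-tib48 (difference 1.45, SE 0.0599, adjusted p = 4.36e-12). The early transcription factor Egr2 differed by -0.97 and Nr4a1 by 0.78. The glutathione transferase Gsta4 differed by -1.03 and haem oxygenase Hmox1 by -0.50. Of 50 immediate early and stress genes 12 were higher and 14 lower (52% called, median -0.01), and with slide run as a block 8 and 8. Of 31 hypoxia and glycolysis genes 10 were higher and 4 lower (45.2% called, median 0.05), or 10 and 1 with slide run as a block and 10 and 2 without TAF-tib48 replicate 3. Ddit4, an inhibitor of the growth kinase mTORC1, had 0.01, 0.13 and 0.14 in TAF-tib42, against -1.16, -1.16 and -0.94 in TAF-tib48 (difference 1.18, SE 0.0698, adjusted p = 6.52e-10), while Car9 (0.01), Ldha (0.00) and Pgk1 (-0.05) were not called. Of 17 prostaglandin genes 4 were higher and 1 lower (29.4% called, median 0.05), among them the inducible cyclooxygenase Ptgs2 at 0.67 and the phospholipase Pla2g4a at 0.62.

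Several genes outside these lists were among the largest differences. The metal-binding metallothionein Mt2 had 1.51, 1.47 and 1.52 in TAF-tib42, against -0.75, -0.94 and 0.06 in TAF-tib48 (difference 2.04, SE 0.158, adjusted p = 2.43e-08). Rab7b, a GTPase of late endosomes, differed by 1.97 (SE 0.0482) and the lipid kinase Pi4k2b by 1.92 (SE 0.0417). In each of these genes all TAF-tib42 arrays lay above all TAF-tib48 arrays. The tetraspanin Tspan18 had -1.06, -1.09 and -1.02 in TAF-tib42, against 1.72, 1.6 and 1.53 in TAF-tib48 (difference -2.68, SE 0.0468, adjusted p = 3.31e-17). Ctla2a, an inhibitor of cysteine proteases, differed by -2.19 (SE 0.113), Klra15, named for a receptor of natural killer cells, by -1.83 (SE 0.112), and Glipr1 by -2.29 (SE 0.0581). Glipr1 was well above background on 2 of the 3 TAF-tib42 arrays.

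Mela, annotated as melanoma antigen, lay above the reference RNA in both sources, with 0.64, 0.69 and 0.64 in TAF-tib42, against 0.81, 0.75 and 1.15 in TAF-tib48. It differed by -0.25 (SE 0.0769, adjusted p = 0.038), but by -0.12 without a call when TAF-tib48 replicate 3 was left out (adjusted p = 0.178), where its spot was saturated, and leaving out any TAF-tib42 array, or slide run as a block (adjusted p = 0.531), also ended the call. Its mean was 0.26 in TAF-el4, -4.24 in TAF-tib6 and -4.45 in NSF, so TAF-tib42 and TAF-tib48 differed from each other far less than either did from the sensitive sources. Of 19 X-linked lymphocyte-regulated and imprinted genes 5 were called, each of them lower in TAF-tib42 (3 with slide run as a block), including the imprinted growth regulators Grb10 (-0.46, with 0.05 and -0.04 at its other probes) and Igf2r (-0.33). Of 10 ribosomal protein paralogues 2 were higher and 3 lower, with Rps4l at -0.91. Of 28 solute and water transport genes 6 were higher and 8 lower, with the water channel Aqp1 at -1.23 (SE 0.0801) and the glutamine transporter Slc1a5 at 0.53; with slide run as a block 3 were higher and 2 lower.

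Marker lists of fibroblasts and of further cell types are set here against the 18.5% of genes with a symbol that were called. Of 20 fibroblast markers 2 were higher and 4 lower (30% called), or 3 and 2 with slide run as a block. Among those called were Thy1 at -0.35 and Cd34 at -0.62. Fap (-0.04) and Ddr2 (-0.08) were not called, nor was Vim (-0.08), whose Cy5 signal was saturated on every array of both sources. Of 19 macrophage and myeloid markers 3 were higher and 1 lower (21.1% called, the lower call lost with slide run as a block), with Aif1 at 0.42, or 0.06 with no call at its second probe, and Tyrobp at 0.39, and the summed Cy5 signal of this list was 0.014% to 0.0151% of an array in TAF-tib42 and 0.0139% to 0.0149% in TAF-tib48. Net Cy5 intensity of the pan-leukocyte gene Ptprc was 38.1 to 43.5 in TAF-tib42 and 47.9 to 53.9 in TAF-tib48. Of 19 lymphocyte and lymphoma markers Thy1, which fibroblasts also make, was the 1 called (5.26%), and the summed signal was 0.0745% to 0.0756% of an array in TAF-tib42 and 0.101% to 0.106% in TAF-tib48. Net Cy5 intensity of Thy1 in this sum was 14124.9 to 17151 in TAF-tib42 and 21666.1 to 32513.2 in TAF-tib48. That of the T-cell gene Cd3e was 1863.7 to 2400.2 and 2032.2 to 3545. The summed signal of the adipocyte list was 0.0364% to 0.039% in TAF-tib42 and 0.029% to 0.032% in TAF-tib48. Of 18 epithelial markers 2 were higher and 2 lower (22.2% called) and of 12 skeletal muscle markers 2 were higher (16.7%). These calls were lost with slide run as a block, and without TAF-tib48 replicate 3 each list had 1 higher member. Of 9 melanocyte markers 1 was higher (Mitf at 0.31, with -0.02 and 0.03 and no call at its other probes). Of 12 nerve and Schwann markers 1 was lower (S100b at -0.37). The part of other cells in the differences between the sources was not tested.

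**Figure D5:**
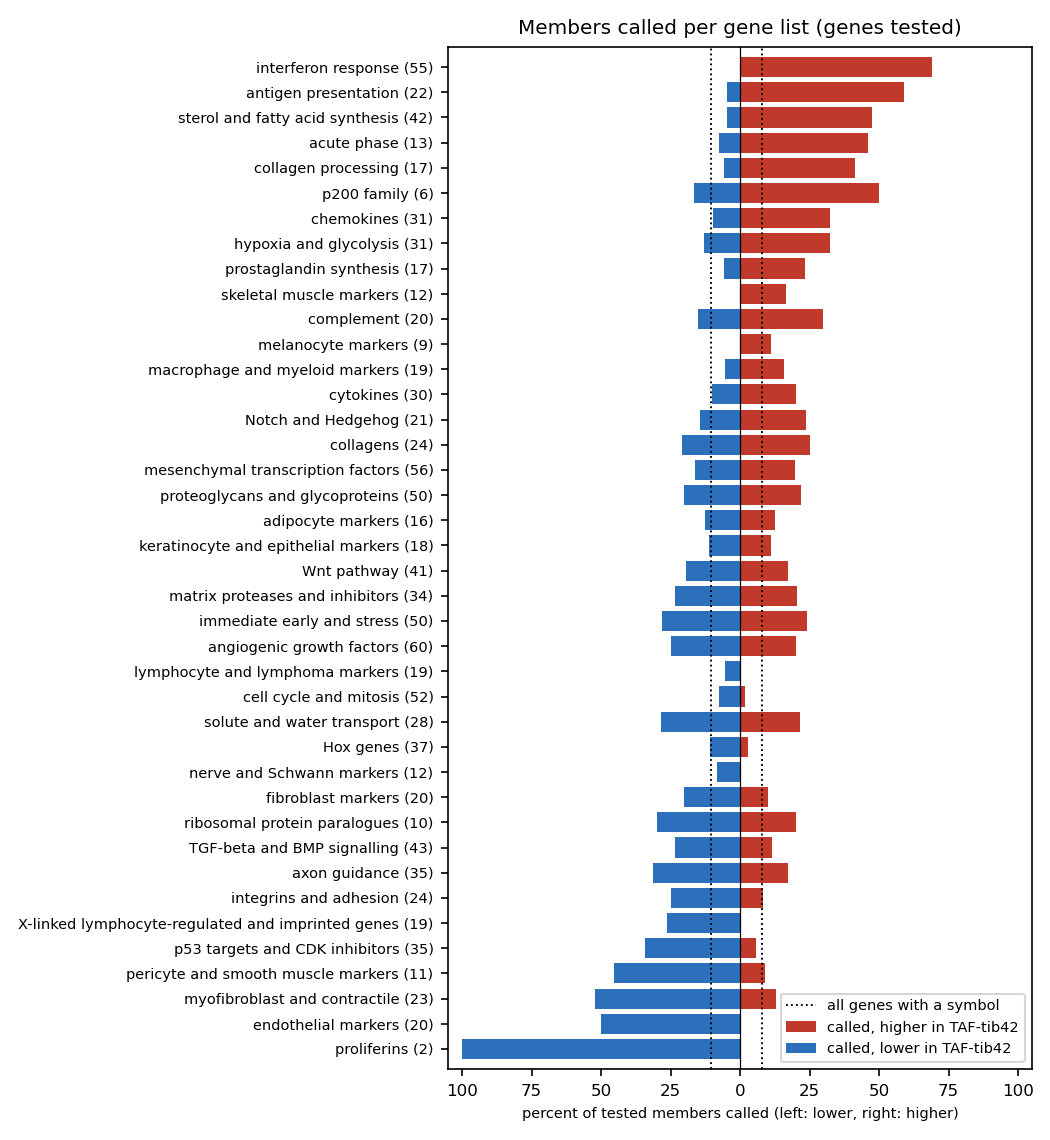
Percent of the tested members of each of 40 gene lists that were called higher (red, to the right) or lower (blue, to the left) in TAF-tib42; numbers in brackets are genes tested, and dotted lines mark the shares over the 16523 genes with a symbol, 7.9% and 10.6%. The interferon response list is at the top with 69.1% higher, and the endothelial list is near the bottom with 50% lower.

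Seen from the other 3 sources, both TAF-tib42 and TAF-tib48 departed among the 183 genes with a called difference of at least 2-fold. A departure here was a difference from the mean of TAF-el4, TAF-tib6 and NSF of at least 2-fold, at adjusted p under 0.05. Smaller called differences did not count, such as that of Saa3 in TAF-tib42 (0.69, adjusted p = 0.0188 in limma's test). The 183 genes were chosen by their difference between the 2 sources, which favours a departure in 1 of them. Among the 103 higher genes, 37 departed from that mean in TAF-tib42 only and 36 in TAF-tib48 only. Among the 80 lower genes, 32 departed in TAF-tib42 only and 15 in TAF-tib48 only. A further 1 higher and 3 lower genes departed from that mean in opposite ways in both, and the remaining 29 and 30 met neither description. For Ifi202b, one of the 3, the mean was set by the high value of TAF-tib6. For Prl2c5, another of them, TAF-tib48 lay below TAF-el4 and exceeded the mean through the lower values of TAF-tib6 and NSF. Cxcl5 was the 1 higher gene of the opposite kind, named after its values were seen, with means of 4.39 in TAF-tib42 and 0.64 in TAF-tib48, beside 1.19 in TAF-el4, 3.92 in TAF-tib6 and 4.10 in NSF. Here TAF-tib42 lay near TAF-tib6 and NSF, and the low value of TAF-el4 lowered the mean.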

How the data were processed

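Per the file headers, the deposited scanner files hold spot intensities of both dyes (mean signal and median local background), flags for outliers, saturation and signal well above background, and the scanner software's log10 ratio of Cy5 to Cy3. Agilent Feature Extraction 8.5.1.1 is named in the headers and the submitters' processing notes, version 9.5 in a protocol label. The table deposited by the authors holds log2 ratios whose direction, Cy5 over Cy3, follows from a slope and correlation of 1 with the scanner's ratio; its columns have medians of 0.0337 to 0.0511, so they were not centred.

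Here limma 3.58.1 (R 4.3.3) was used for background correction (normexp, offset 50) and loess normalisation within each array; control spots had weight 0. Flagged outlier spots were left out and saturated spots kept. Of 41174 probes, 22214 were named by accession in a RefSeq table of GRCm38.p6, and 17491 kept the name of the files. The brightest probe stood for a gene. Tested were genes whose Cy5 signal lay well above background on all 3 arrays of at least 1 source; 89.5% to 95.6% of probes per array carry that flag. All 15 arrays entered 1 fit (lmFit, eBayes), with two-sided p-values and the Benjamini-Hochberg adjustment. The SD between arrays of 1 source had a median of 0.063 over genes (log2), and 3 arrays per source limit the precision.

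The gene lists, the comparison and the naming rule were chosen with earlier results of these data known. Named were the 15 highest and 15 lowest called genes with separate groups, passing over clone, RIKEN and predicted names; up to 6 called members of a list, or 12 for the interferon, p200, angiogenic and p53 lists; uncalled list members as examples; and Mela, Pdgfc, Pdgfa and Vegfa; 2 genes that the rule names are not reported here. On simulated data for this comparison, the test on 31200 genes found 68% of 50 that were changed 1.2-fold, 100% of 50 that were changed 1.5-fold, and 14 unchanged ones. The simulated noise was independent between arrays, without a slide run effect or an array that stands apart, so these values need not hold for the real arrays. Alternatives covered arrays, blocks, background, normalisation, filter, probe choice and the source of the values.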

Additional observations from a re-analysis of the deposited data

How the results depend on the processing

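The 4449 calls fell to 2551 with slide run as a block, to 2441 within the 1 slide run that holds both sources, where TAF-tib48 has 1 array that is assumed to vary like the other groups, and to 2518 with the Cy5 channel alone. Of the 183 genes changed at least 2-fold, 182, 181 and 183 kept their call under these settings. With the scanner's ratios, 346 genes were called and changed at least 2-fold, and 343 with the table deposited by the authors; each of the 183 kept its call under both. The cause of these shifts was not tested. Leaving out 1 array of either source gave 3531 to 4315 calls, of which 179 to 211 were at least 2-fold. The 6 arrays alone gave 3234 calls, median centring 3075, no filter 4414 and an offset of 16 gave 4081, with 183, 211, 183 and 251 of at least 2-fold. The share of higher among called genes lay between 44.8% and 51.3% under the settings counted, against 46.4%. The largest shift of the median over all genes was 0.01. Of 222 named genes, none changed sign while called. With slide run as a block 26 lost their call, with Cy5 alone 21, and at most 13 under any other setting with more than 1 array of each source.

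The replicate numbers did not pair the arrays: deviations of TAF-tib42 and TAF-tib48 arrays with the same number correlated at -0.01, 0.10 and -0.19. A fit with a replicate block called 4237 genes, 183 of them at least 2-fold. A block for scan day was not run, since the 15 arrays were scanned on 1 day. Dim probes, genes with disagreeing probes, a reference RNA with little of a gene and the unknown independence of the arrays limit single values.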
